A study of Mus musculus with 142 samples.

Results

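CR11.8k, CR13.4k and CR14.6k are 3 nested deletions on the right side of ERCE C, an early replication control element (a DNA segment needed for early replication) in the Dppa2/4 domain of mouse chromosome 16. They were chosen by the deletion named in the sample titles, which gave 10 of 142 samples and 5 of 58 clones. Each clone has 1 sample of early and 1 of late S-phase DNA. CR11.8k was represented by clone 50, CR13.4k by clones 2-12 and 2-49, and CR14.6k by clones 16 and 53. All clones were derived from F121-9, a hybrid mouse embryonic stem cell line with 1 musculus and 1 castaneus genome, and were grown in 2i + LIF. All were labelled with BrdU for 2 h, and the labels name no other treatment. The deletion lay on the castaneus homolog in clone 50 and on the musculus homolog in the other 4 clones, and the intact homolog of the same clone served as the control (CON) for the deleted one (DEL). For clones 16 and 53 the study's genotype list left the castaneus allele blank, and it was taken as intact because its column is named CON. Strain and deletion size therefore cannot be told apart between CR11.8k and the other deletions, and CR11.8k is 1 clone. Its values came as 2 repeats, called run 1 and run 2 here, which were averaged. The labels list 1 early and 1 late sample for this clone and do not say what was repeated.

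Replication timing (RT) is the time in S phase at which a region is copied. It was given as log2(E/L), the ratio of early to late labelled DNA in windows of 50 kb, so that early replication gives a positive and late replication a negative value. In embryonic stem cells early replication of this domain depends on several ERCEs. Such elements carry sites bound together by OCT4, SOX2 and NANOG (OSN sites), the transcription factors of the pluripotent state. Dppa2 and Dppa4 are pluripotency genes, and Morc1 is needed in the male germ line. ERCE C lies inside Morc1, and the study names 3 OSN sites (COSN1, COSN2 and COSN3) and an internal Morc1 promoter (CTSS) within it.

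All 3 deletions start at the same cut and end at different ones. CR11.8k removed chr16:48601345-48613171 of mm10 (11827 bp), CR13.4k removed chr16:48601345-48614742 (13398 bp) and CR14.6k removed chr16:48601345-48615998 (14654 bp). The guide RNA targets that set these edges are given here 5′ to 3′ on their own strand, with the PAM in capitals. The first made the shared left edge and the others made the right edges of CR11.8k, CR13.4k and CR14.6k in that order.
C-RIGHT-G1: tgaatgtgtgagacatgcgaAGG
C-OSN-1-G1: gagtaactcaggcaaaacgtTGG
C-OSN-1-G2: ggaccggccaacctcccttaAGG
C-RIGHT-G2: gatggttagctattgtgaacAGG
Each target had 1 exact match on chromosome 16. C-RIGHT-G1 lay on the plus strand at chr16:48601328-48601350. The others lay on the minus strand at chr16:48613166-48613188, chr16:48614737-48614759 and chr16:48615993-48616015.

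All 3 segments lay inside Morc1 (chr16:48431237-48630900, plus strand). CR11.8k and CR13.4k took out exon 21 of the 27 exons of the annotated Morc1 transcript (73 bp of coding sequence), and CR14.6k took out exons 21 and 22 (140 bp). Every segment included CTSS (chr16:48611123-48613171), COSN2 (chr16:48608216-48608754) and COSN3 (chr16:48606321-48607163). The step from CR11.8k to CR13.4k was 1571 bp, which is the COSN1 segment (chr16:48613172-48614742) and held no Morc1 exon. CR11.8k therefore left COSN1 in place and the other deletions removed all 3 OSN sites. The step from CR13.4k to CR14.6k was a further 1256 bp with 1 exon of Morc1 and no OSN site named by the study. GC content was 43.0%, 43.0% and 42.6%. A search of both strands for the POU octamer ATGCAAAT, a motif of the OCT4 family, found 0 matches in the 14654 bp, while 71.3% of 6477 tiles of that length on chromosome 16 held at least 1. The 3 segments made up 23.7%, 26.8% and 29.3% of the single window at 48.60 to 48.65 Mb, so most of the domain's windows held intact sequence on both homologs.

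RT was described in 80 windows from 46.50 to 50.50 Mb. The columns of these clones held a value in 78.7% to 92.7% of 49264 windows on the 19 autosomes and in 70 to 80 of the 80 windows. The read depth of a window cannot be recovered from a ratio. The authors smoothed the curves, and neighbouring windows are therefore not independent. Over all windows the median of clone 50 was 0.10 (DEL) and 0.09 (CON) in run 1, and −0.15 for both alleles in run 2.

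The DEL allele replicated later than the CON allele of its clone on the right side of the domain in all 5 clones. At 48.70 to 48.75 Mb clone 50 (CR11.8k) had log2(E/L) 0.03 on DEL and 0.79 on CON. Its run 1 gave 0.21 and 0.98, and its run 2 gave −0.15 and 0.59. Clones 2-12 and 2-49 (CR13.4k) had 0.07 and 0.41 on DEL against 0.86 and 1.02 on CON. Clones 16 and 53 (CR14.6k) had 0.23 and 0.22 on DEL against 0.67 and 0.75 on CON. All 5 DEL values lay below all 5 CON values in this window. It was named because it held the largest difference of CR11.8k, so this separation is not a test. The 42 WT castaneus alleles with a value there, from all deletions in the series, ranged from 0.43 to 1.11 with a median of 0.79. The musculus homolog was intact in only 2 clones, with 0.79 in clone 50 and 0.73 in clone C4 of CTSS. No DEL allele of the 5 clones reached the lowest WT value.

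**Figure D1:**
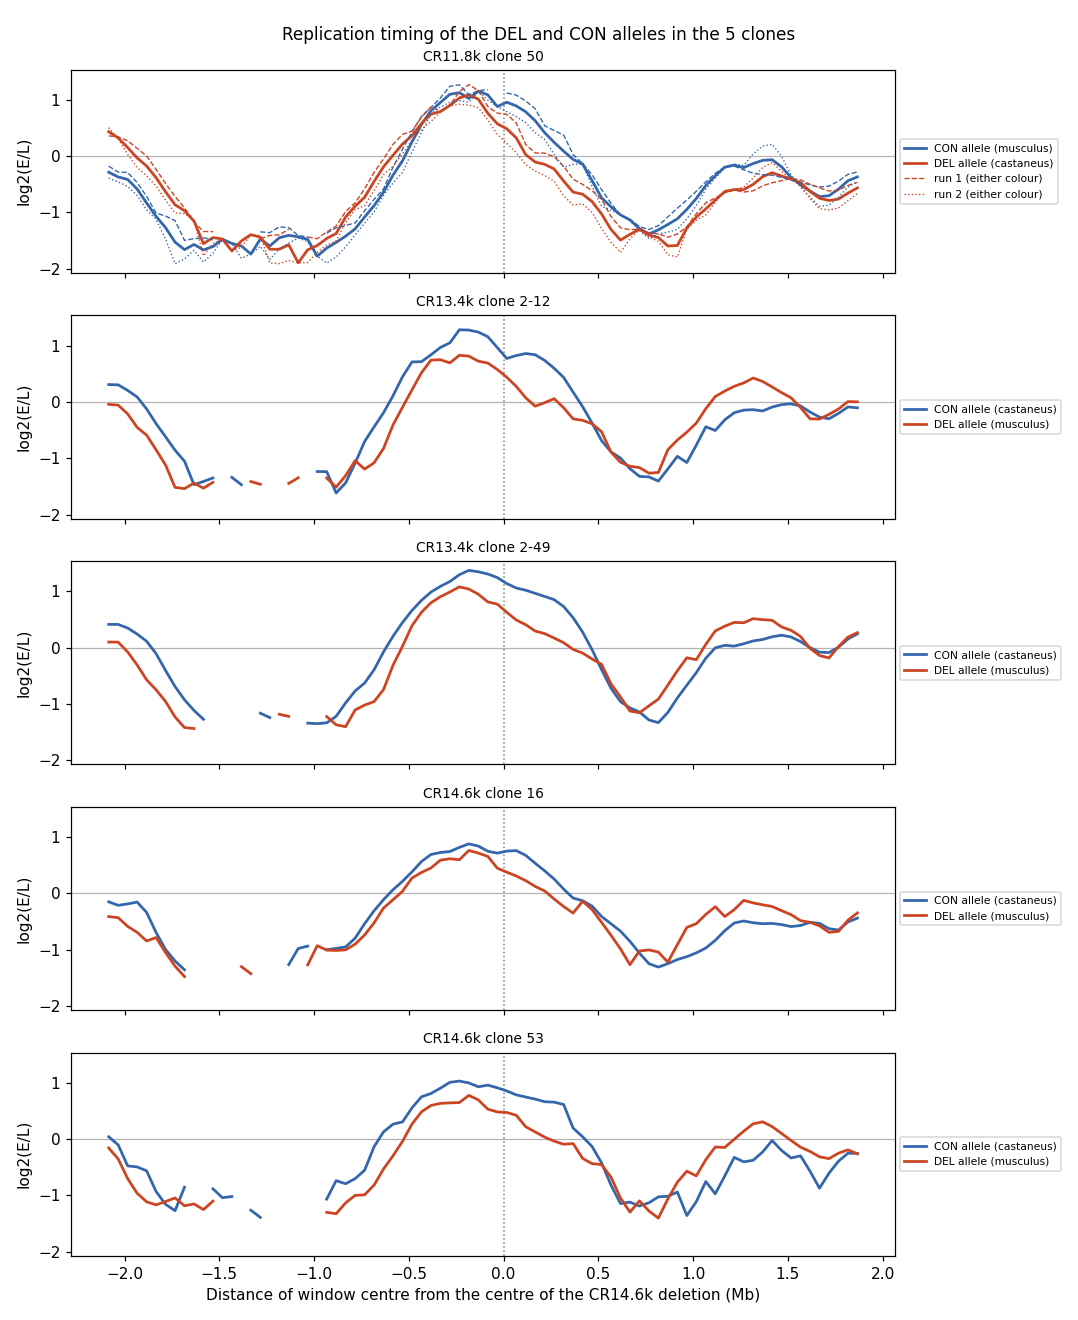
Replication timing of the DEL and CON alleles in the 5 clones, as log2(E/L) per 50 kb window against the distance of the window from the centre of the CR14.6k deletion in Mb (dotted line). DEL runs below CON just to the right of the deletion in every clone. In the 4 clones deleted on musculus it runs above CON from 49.50 to 50.15 Mb.

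Differences between DEL and CON were tested per window with limma, in 1 fit over 45 clones of 26 deletion groups, with Benjamini-Hochberg adjustment over all windows and a threshold of 0.05. In CR11.8k, 10 of 80 windows were called later and 6 earlier, where 4.01% and 3.91% of all windows tested were called. In CR13.4k, 28 of 73 windows were called later and 9 earlier, against 10% and 8.95% of all windows. In CR14.6k, 11 of 70 windows were called later and 11 earlier, against 8.8% and 7.95%. The median difference over the tested windows of the region was −0.14, −0.14 and −0.18, and over all windows tested it was 0.00, −0.01 and −0.01. Each comparison sets 1 subspecies against the other, so deletion and strain cannot be told apart within it. The p-values measure the spread between clones within a deletion, pooled over all deletion groups of the fit. By the paper, several of these groups, such as A.COSN123, were made in the COSN123 cell line, so their clones share a parent. Whether such clones vary less than clones made separately was not tested. CR13.4k and CR14.6k have 2 clones each, so their p-values also rest mostly on other groups. Both had the same SE of 0.122 at 48.75 to 48.80 Mb. CR11.8k has 1 clone, so its 10 later and 6 earlier calls rest on the spread in other deletion groups and assume that its clones would vary like theirs.

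The 10 later windows of CR11.8k formed 1 block from 48.55 to 49.05 Mb. The largest difference was −0.76 at 48.70 to 48.75 Mb (SE 0.160, limma adjusted p = 0.0032). At 48.55 to 48.60 Mb its CON value came from run 2 alone. The 6 earlier windows lay between 46.50 and 46.85 Mb, over 1 Mb left of the deletion, at +0.55 to +0.72. In CR13.4k the later windows lay in 3 blocks, at 46.50 to 46.95, 47.90 to 48.15 and 48.30 to 49.00 Mb. The largest difference was −0.79 at 48.75 to 48.80 Mb (SE 0.122, limma adjusted p = 3.93e-05). In the leftmost block these calls are relative to CON. Against WT musculus alleles, CR13.4k DEL differed by +0.24 to +0.33 at 46.50 to 46.85 Mb, and by −0.01 and −0.02 in the next windows. At 46.50 to 46.55 Mb the CON value of clone 2-49, 0.41, was the highest of 42 WT castaneus alleles. In CR14.6k, 8 of the 11 later windows lay at 48.55 to 48.95 Mb, where the largest difference was −0.52 at 48.85 to 48.90 Mb (SE 0.102, limma adjusted p = 0.00065). The other 3 lay at 46.65 to 46.75 and 48.15 to 48.20 Mb, and among them the difference at 46.70 to 46.75 Mb was −0.53 (SE 0.152, limma adjusted p = 0.0164). All earlier windows of CR13.4k and CR14.6k lay to the right, between 49.45 and 50.15 Mb, at +0.26 to +0.71.

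**Figure D2:**
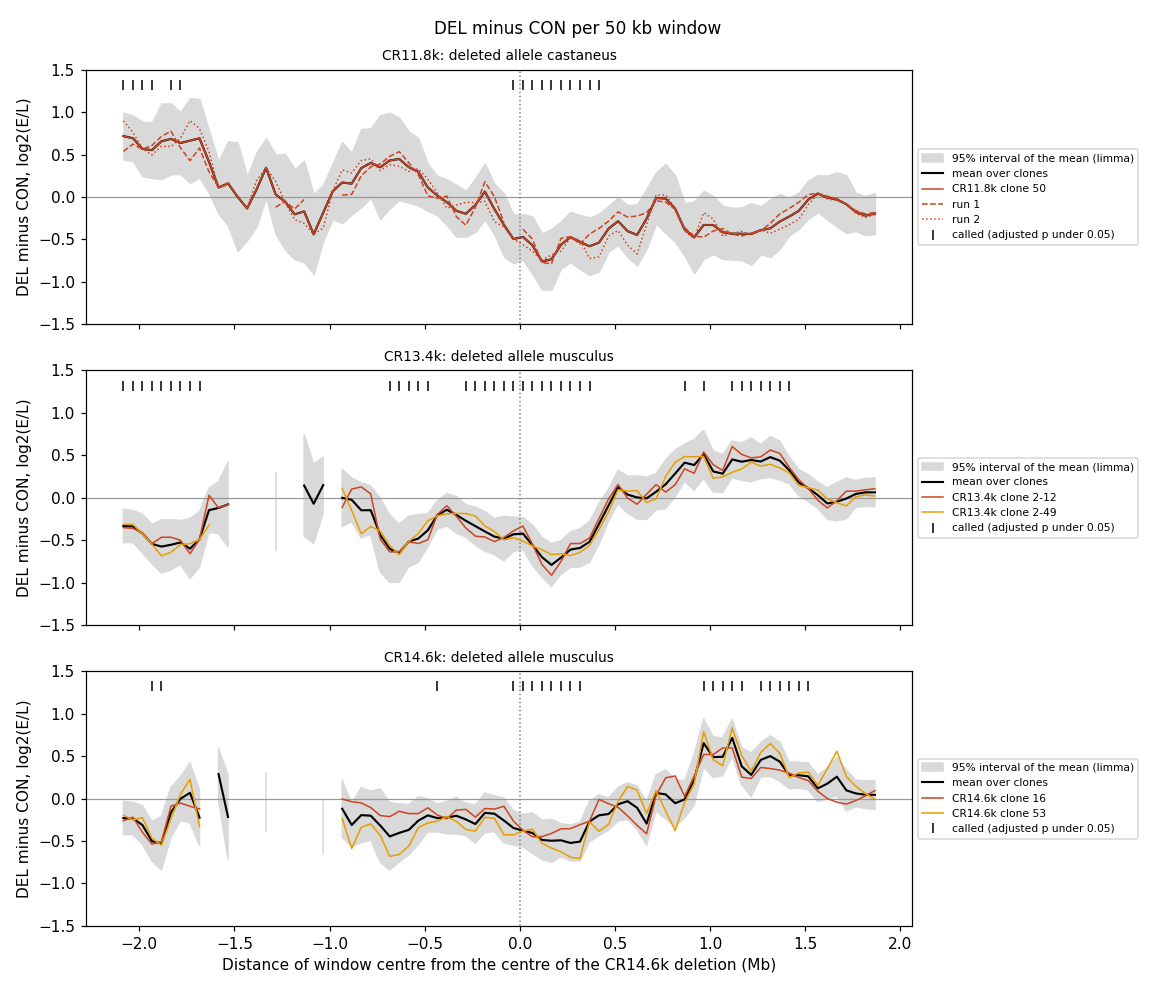
DEL minus CON in log2(E/L) per 50 kb window for the 3 deletions against distance from the CR14.6k deletion in Mb, with each clone (and each run of clone 50) as a line, the limma mean in black, its 95% interval in grey and called windows as ticks. A dip just right of the deletion is common to all panels, while the far left and far right differ in sign between the castaneus deletion and the musculus deletions.

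Of 38312 windows tested in all 3 deletions, 8 were called later in each of them, a share of 0.0209%. All 8 lay side by side at 48.55 to 48.95 Mb of chromosome 16, a stretch of 400 kb that holds the deleted segment near its left end. The share called earlier in all 3 was 0%, that is 0 windows by limma. The count of 8 fell to 0 without CR14.6k clone 53 and with the aggregate WT curve in place of the CON allele. It was 5 without clone 16, 6 without clone 2-49, and 6 from run 1 of clone 50, of which 5 were in this stretch. By sign alone, with no call, the 3 deletions were later together in 18 of 69 windows of the region and in 2871 of 38312 windows overall. They were earlier together in 1 and in 2232. At the level of clones, DEL was below CON in all 5 clones in 17 of 66 windows with values in each, and above CON in all 5 in 0. The longest run of such windows on the autosomes was 13 windows at 48.45 to 49.10 Mb of chromosome 16, with a mean difference of −0.45. The next longest was 7 windows on chromosome 10, at 130.10 to 130.45 Mb, with a mean of −0.32.

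Because the deleted homolog was castaneus in CR11.8k and musculus in the others, a mean with weight 0.5 on CR11.8k and 0.25 on each of the others gives both strains the same weight, and a plain difference between musculus and castaneus cancels in it. In this strain-balanced mean, 8 of 69 windows of the region were called later, at 48.55 to 48.95 Mb, and 0 earlier, with 21 at an unadjusted p under 0.05. Over all windows 0.0235% (9 of 38312) were called later and 0% earlier. The lowest value was −0.69 at 48.75 to 48.80 Mb (SE 0.097, 95% interval −0.89 to −0.49, limma adjusted p = 0.0028). At 48.70 to 48.75 Mb it was −0.68 (limma adjusted p = 0.00141). The ninth window lay on chromosome 7. The count in the region was 3 without clone 2-49, 4 without clone 53 and 5 with run 1 of clone 50 alone. CR11.8k carries the castaneus side alone, so these p-values rest on 1 clone there, assumed to vary like clones of the other groups.

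**Figure D3:**
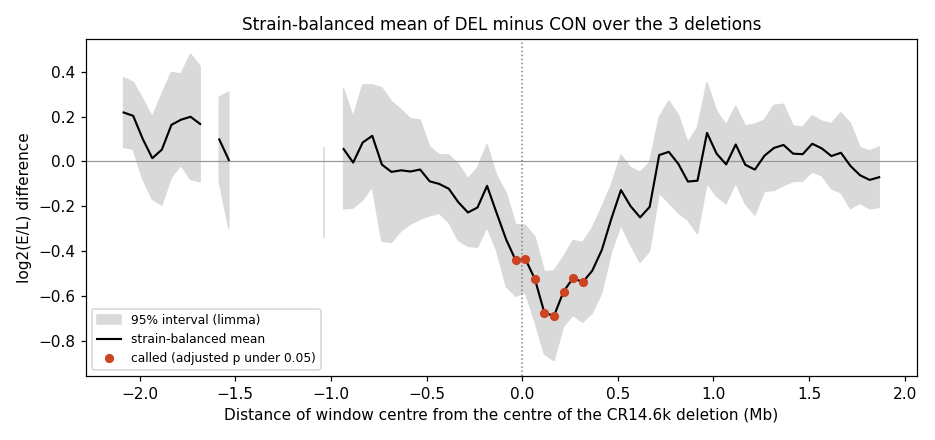
Strain-balanced mean of DEL minus CON, in log2(E/L) per 50 kb window with its 95% limma interval, against distance from the CR14.6k deletion in Mb. The called windows form 1 block of 8 around and to the right of the deletion, with a lowest value of −0.69.

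The domain was then read in blocks. The region from 47.50 to 48.20 Mb is its left slope, 48.20 to 48.60 Mb holds Dppa4, Dppa2 and the start of Morc1, 48.60 to 48.65 Mb is the window of the deletion, and 48.65 to 49.50 Mb is the right slope. In the window of the deletion DEL minus CON was −0.47 in CR11.8k (1 clone), −0.42 ± 0.125 in CR13.4k and −0.38 ± 0.006 in CR14.6k (SD, n = 2 clones each). Over the right slope it was −0.41, −0.22 ± 0.016 and −0.24 ± 0.074. Over 48.20 to 48.60 Mb it was −0.18, −0.34 ± 0.043 and −0.24 ± 0.108. All 5 clones were negative in these 3 blocks. On the left slope the sign followed the deleted strain, with +0.18 in CR11.8k, −0.30 ± 0.016 in CR13.4k and −0.29 ± 0.198 in CR14.6k. In the flank at 46.50 to 47.50 Mb the values were +0.32, −0.39 ± 0.026 and −0.20 ± 0.003. In the neighbouring block at 49.65 to 50.05 Mb, which holds Cd47 (a cell surface protein) and Ift57 (a cilium transport gene), the order was turned, with −0.37, +0.41 ± 0.098 and +0.44 ± 0.087. Other ERCE C deletions on musculus were also positive there: CL20k +0.61, COSN1 +0.36, COSN12 +0.15, COSN123 +0.46 and CTSS clone C12 +0.50. CTSS clone C4, deleted on castaneus, had −0.43. The paper reports that this block varies between clones and differs in RT between castaneus and musculus. The strain-balanced means of these blocks were 0.01 in the left flank, −0.06 on the left slope, −0.23 over 48.20 to 48.60 Mb, −0.43 in the window of the deletion, −0.32 on the right slope and 0.03 in the right neighbour. The difference between the castaneus deletion and the mean of both musculus deletions, times 0.5, was +0.31, +0.24, +0.06, −0.03, −0.09 and −0.40 in the same order. In the window of the deletion the strain-balanced mean was the lowest of the 6 blocks and this term the smallest in size. That block is 1 window, and single windows of the wider right slope were lower, down to −0.69 at 48.75 to 48.80 Mb. Pearson's r between the difference curves, over 66 windows that share smoothing and strain, was 0.92 between the CR13.4k clones, 0.77 between the CR14.6k clones and 0.78 to 0.81 across these deletions. Clone 50 against the others gave −0.34 to −0.20.

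**Figure D4:**
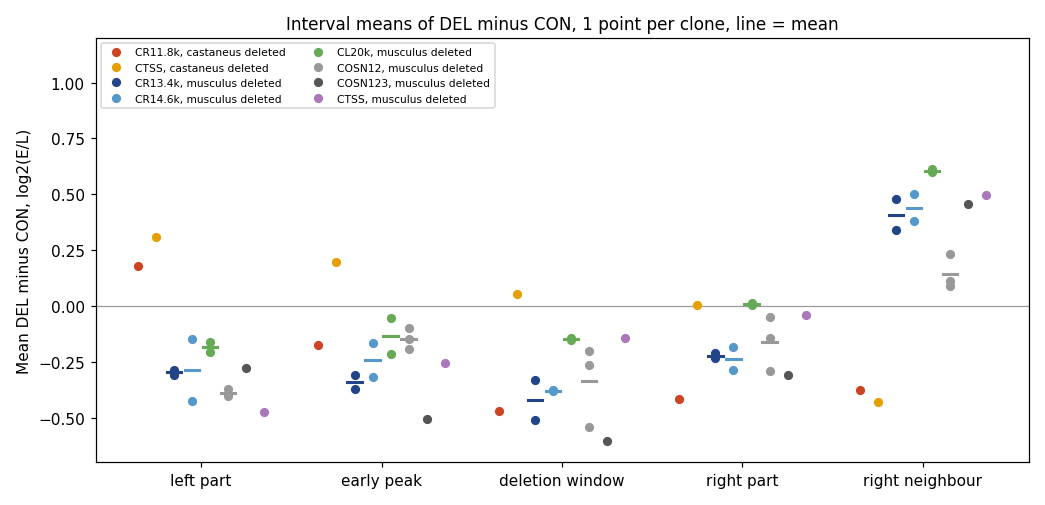
Mean DEL minus CON in log2(E/L) over blocks of chromosome 16, with 1 point per clone and a line at the mean, for the 3 right-side deletions and for CL20k, COSN12, COSN123 and CTSS. The left part and the right part are the left and right slopes, and the early peak is 48.20 to 48.60 Mb. The 5 right-side clones lie below 0 in the early peak, the deletion window and the right part, while in the left part and the right neighbour CR11.8k lies on the other side of 0 from CR13.4k and CR14.6k.

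Among the genes of the domain, the differences at Dppa4 and Dppa2 were smaller than those at 48.70 to 48.75 Mb in each clone. That window was picked for its large difference in these data, so the contrast follows largely from the choice and was not tested. In the window with the start of Dppa2 (48.30 to 48.35 Mb) DEL minus CON was −0.20 in clone 50, −0.36 and −0.19 in clones 2-12 and 2-49, and −0.13 and −0.36 in clones 16 and 53. CR13.4k was called later there, at −0.27 (limma adjusted p = 0.040). CR14.6k (−0.25, limma adjusted p = 0.070) and CR11.8k (−0.20, limma adjusted p = 0.47) did not pass. In the window with the start of Dppa4 (48.25 to 48.30 Mb) the 5 clones gave −0.16, −0.22, −0.18, −0.14 and −0.27 in the same order, and no deletion was called. At the start of Morc1 (48.40 to 48.45 Mb) clone 50 had 1.09 on DEL and 1.02 on CON. The other clones were lower on DEL there, with 0.81 against 1.27, 1.04 against 1.37, 0.76 against 0.88 and 0.78 against 1.00. Of 14 protein-coding genes in the region, 6 overlapped the 8 windows called later in all 3 deletions. They were Morc1, Trat1 (a T cell receptor adaptor), Retnlb, Retnla and Retnlg (secreted resistin-like proteins) and Dzip3 (a ubiquitin ligase), and were named after the values were seen. The DEL allele at the window of Trat1's start (48.75 to 48.80 Mb) had −0.10, −0.08, 0.29, 0.12 and 0.13 in the 5 clones, and the CON allele 0.63, 0.84, 0.96, 0.53 and 0.71.

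The right border of the early domain was taken as the position where log2(E/L) falls through 0. It lay nearer the deletion on DEL than on CON in every clone. In clone 50 it lay at 48.735 Mb on DEL and 48.955 Mb on CON, a shift of −220 kb (−117 kb in run 1 and −193 kb in run 2). It lay at 48.749 and 49.009 Mb in clone 2-12 (−259 kb) and at 48.962 and 49.069 Mb in clone 2-49 (−108 kb). In clone 16 it lay at 48.840 and 48.949 Mb (−109 kb) and in clone 53 at 48.850 and 49.037 Mb (−188 kb). The border of 42 WT castaneus alleles lay between 48.883 and 49.069 Mb, and the DEL border of clone 50 lay outside this range. It differed from their mean by −250 kb, with 1 clone and so no spread of its own. The 4 musculus DEL alleles against the 2 WT musculus alleles differed by −119 kb (exact two-sided permutation p = 0.267, where 0.0667 is the smallest possible). The WT musculus borders lay at 48.955 and 48.983 Mb. The DEL border of clone 2-49 lay between them, and those of clones 2-12, 16 and 53 lay below both. The CON border of clone 2-49 was the highest among the WT castaneus alleles. For the left border, DEL minus CON was −66 kb in clone 50 and +83, +83, +56 and +131 kb in clones 2-12, 2-49, 16 and 53. The sign was opposite for the castaneus and musculus deletions. The left border on DEL was 48.02 Mb in clone 50, within the 47.92 to 48.12 Mb of the 42 WT castaneus alleles. In clones 2-12, 2-49, 16 and 53 it was 48.09, 48.07, 48.06 and 48.08 Mb, against 48.08 and 48.09 Mb in the 2 WT musculus alleles. The highest DEL value of the domain minus the highest CON value was −0.45, −0.29, −0.12 and −0.25 in clones 2-12, 2-49, 16 and 53. In clone 50 it was −0.07, with 0.00 in run 1 and −0.23 in run 2.

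Each DEL allele was also set against WT alleles of its own strain in other clones, a comparison within a strain and between clones. By limma on single alleles 0 of 80, 0 of 75 and 0 of 75 windows tested were called for CR11.8k, CR13.4k and CR14.6k, with 18, 10 and 12 at an unadjusted p under 0.05 and lowest adjusted p of 0.134, 0.778 and 0.199. Of all windows 0% were called later and 0% earlier for CR11.8k, 0.00461% and 0.0138% for CR13.4k, and 0.0115% and 0.0853% for CR14.6k. At 48.70 to 48.75 Mb the differences were −0.77 (95% interval −1.10 to −0.45), −0.52 (−0.84 to −0.20) and −0.53 (−0.86 to −0.21). That window was picked for its large difference in these data, so these intervals follow largely from the choice. The window of the deletion in clone 50 had 0.49 on DEL against 0.54 to 1.14 in 42 WT castaneus alleles (exact permutation p = 0.0233, 0.0814 adjusted over 7 blocks). Its right slope, over the 14 windows with a value in every allele, had −0.66 against −0.49 to 0.13 (exact permutation p = 0.0233, adjusted 0.0814). Both DEL values lay below every WT castaneus allele, and with 1 clone these p-values state no more than that rank. At 48.20 to 48.60 Mb the DEL value of 0.86 lay within the WT range of 0.70 to 1.30 (exact permutation p = 0.256). The 4 musculus DEL alleles had 0.44, 0.63, 0.38 and 0.47 in the window of the deletion against 0.96 and 0.91 in the WT musculus alleles (exact permutation p = 0.0667, the smallest possible, 0.467 adjusted over 7 blocks). These groups did not overlap. On the right slope the same alleles differed by −0.09 (exact permutation p = 0.4). On the left slope, over 11 windows with a value in each of these alleles, they differed by 0.12 (exact permutation p = 0.333). The mean over 47.50 to 49.50 Mb was −0.28, −0.053 and −0.077 for CR11.8k, CR13.4k and CR14.6k against the mean of same-strain WT alleles, and −0.16, −0.28 and −0.26 against CON.

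**Figure D5:**
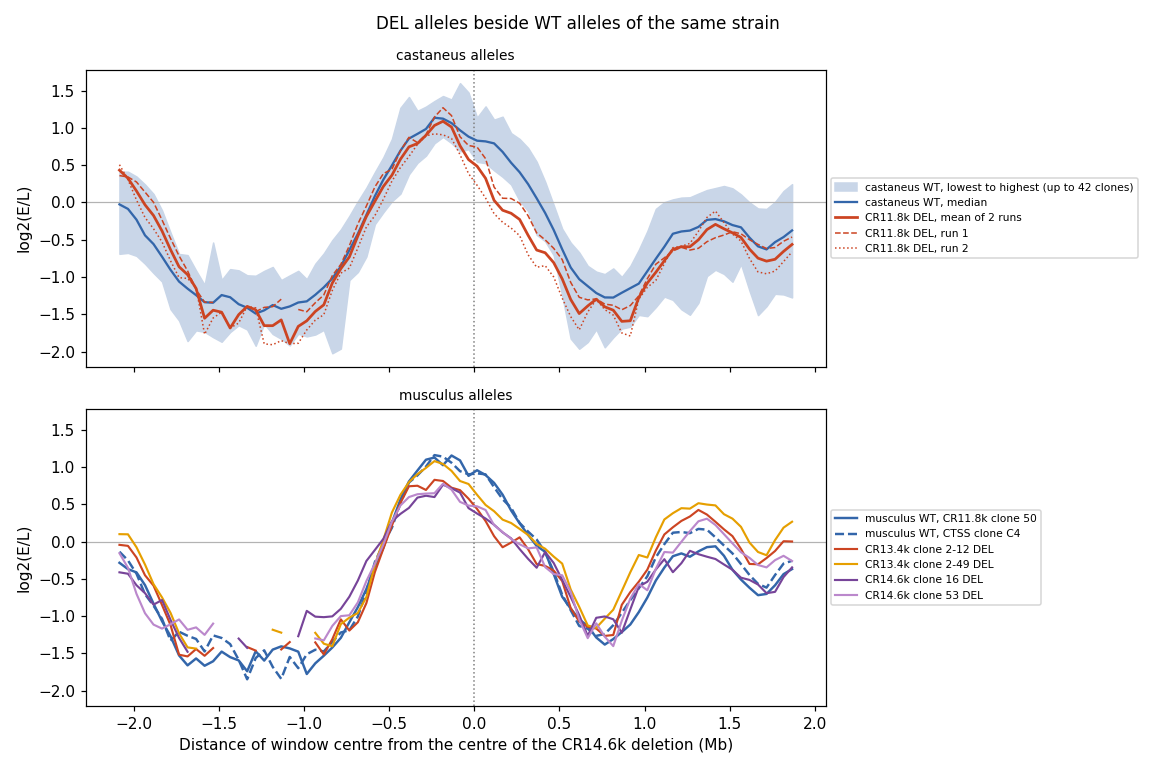
Replication timing in log2(E/L) of the DEL alleles beside WT alleles of the same strain, against distance from the CR14.6k deletion in Mb. The castaneus DEL allele of CR11.8k lies below the WT range from 48.55 to 49.10 Mb, a stretch that includes the window of the deletion. The 4 musculus DEL alleles lie below both WT musculus alleles in the window of the deletion.

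The steps between the nested deletions were compared directly. CR13.4k minus CR14.6k, both on musculus, gave 0 of 69 windows by limma, with 4 at an unadjusted p under 0.05 and 0.00522% later and 0.0156% earlier of all windows. At 48.75 to 48.80 Mb the difference was −0.29 with a 95% interval of −0.65 to 0.06. The data therefore do not show a further delay from the extra 1256 bp, nor do they show equal effect. In exact permutation tests of 2 against 2 clones over 7 blocks p lay between 0.333 (the smallest possible) and 1. CR11.8k minus CR13.4k was later in 12 and earlier in 14 of 73 windows (11.3% and 11.9% of all windows). CR11.8k minus CR14.6k was later in 12 and earlier in 10 of 70 windows (10.7% and 11.1%). All of these calls lay at 46.50 to 48.15 Mb or at 49.45 to 50.10 Mb, where the strain-balanced mean had no call, and deletion and strain cannot be told apart in them. At 48.75 to 48.80 Mb CR11.8k minus CR13.4k was 0.06 (95% interval −0.38 to 0.50) and CR11.8k minus CR14.6k was −0.24 (−0.67 to 0.20). These contrasts also differ in the deleted strain and have 1 clone on the CR11.8k side.

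Other deletions of ERCE C on musculus were used to place the musculus-deleted clones. The window at 48.75 to 48.80 Mb, compared below, held the largest difference of CR13.4k, so intervals there follow partly from that choice. CL20k (2 clones) removed chr16:48581334-48601345, the adjoining 20012 bp to the left. COSN12 (3 clones) and COSN123 (1 clone) removed the OSN sites in their names. CR13.4k was later than CL20k in 1 of 72 windows, at 48.80 to 48.85 Mb (−0.64, 95% interval −0.91 to −0.36, limma adjusted p = 0.0274), where 0.268% of all windows were later and 0.288% earlier. That call was lost without either CR13.4k clone. CR14.6k minus CL20k had 0 calls in 69 windows (9 at an unadjusted p under 0.05, 0.0156% and 0.00779% of all windows), and was −0.43 at 48.75 to 48.80 Mb (95% interval −0.79 to −0.07). CR13.4k minus COSN12 had 0 calls in 73 windows (15 unadjusted, 0.176% and 0.128%), with 0.02 at 48.75 to 48.80 Mb (95% interval −0.30 to 0.35). CR14.6k minus COSN12 had 1 earlier window of 70, at 49.70 to 49.75 Mb (+0.65, limma adjusted p = 0.0322), lost without either CR14.6k clone. Of all windows 0.267% were later and 0.147% earlier. That window lies in the block where the paper reports clonal variation in RT. Against COSN123 neither had a call by limma (2 and 8 windows at an unadjusted p under 0.05; 0.00486% later and 0.00243% earlier for CR13.4k, 0.0175% and 0.00752% for CR14.6k). At 48.75 to 48.80 Mb CR13.4k was above COSN123 by 0.42 (95% interval −0.02 to 0.85) and CR14.6k by 0.71 (0.27 to 1.15).

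CTSS, the smaller deletion of 2049 bp that lies inside all 3 segments, offered clone C4 deleted on castaneus and clone C12 deleted on musculus. The strain-balanced mean of these clones was −0.05 in the window of the deletion and −0.02 on the right slope, against −0.43 and −0.32 for the right-side deletions. The windows named next held the lowest value of each contrast, so their 95% intervals follow largely from the choice. CTSS has 1 clone per strain, so the spread behind them rests on other groups. The difference of the strain-balanced means was −0.76 at 48.75 to 48.80 Mb (95% interval −1.08 to −0.43). It did not pass after adjustment (limma adjusted p = 0.456), and 0 of 69 windows were called, with 12 at an unadjusted p under 0.05 and 0% of all windows called in either direction. CR11.8k minus clone C4, both deleted on castaneus, likewise gave 0 of 79 windows by limma (18 unadjusted, 0% of all windows), with −1.06 at 48.70 to 48.75 Mb (95% interval −1.53 to −0.60, adjusted p = 0.371).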

How the data were processed

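E/L Repli-seq was analysed in F121-9 mESC clones. The authors trimmed reads with TrimGalore, aligned them to N-masked mm10 with bowtie2, split them by homolog with SNPsplit and removed duplicates with Samtools. The deposited values are log2 ratios of early over late reads in 50 kb windows, scaled, quantile-normalized and loess-smoothed by the authors, so local changes spread into neighbouring windows. Versions are not given in the sources used here. Trim Galore, cutadapt and bedtools are named in the submitters' processing notes.

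Runs of 1 clone were averaged, after the DEL minus CON difference was taken within each run. The headers number the homologs without naming a strain. The first was taken as musculus (129) and the second as castaneus (CAST) in every column, from the DEL and CON marks in the headers and the clone genotypes the study lists, and each comparison of strains rests on this. The 45 clones with a DEL and a CON allele entered 1 limma fit (limma 3.58.1, R 4.3.3), 1 coefficient per deletion and deleted strain, with Benjamini-Hochberg adjustment at 0.05. Windows with 9 or fewer values were left out. Same-strain alleles were fitted separately. Block means of single alleles in the exact tests were taken over windows with a value in every allele compared. Means against the mean of same-strain WT alleles used every window with a DEL value and any WT value. Block means and borders were compared with exact two-sided permutation tests over clones (Python 3.11.15, scipy 1.17.1). WT castaneus alleles include the CON alleles of the 4 clones deleted on musculus, and WT musculus alleles that of clone 50. The fit was also run on simulated differences with independent noise in each window. These held no smoothing and no strain difference, so the run cannot vouch for calls in the real curves. Depth is unknown because the values are ratios.

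Windows named are those with the largest difference, those of Dppa2, Dppa4 and Morc1, and the window of the deletion. The deletions, blocks and comparisons were chosen with earlier results of these data known. The strain-balanced mean, windows called in all 3 deletions, borders, comparisons with CTSS, the exact test of musculus alleles and the restriction to shared windows were added after the data were seen. Segments, guide matches and exons were taken from the study's coordinates, the mm10 genome and its gene annotation.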

Additional observations from a re-analysis of the deposited data

Results flagged for a closer look

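CR11.8k, deleted on castaneus, and CR13.4k, deleted on musculus, differed by the test of the difference itself (limma) in 26 windows of the region. CR11.8k and CR14.6k differed in 22. The direction depended on the side, with CR11.8k earlier to the left and later to the right of the domain. Deletion and strain cannot be told apart in these counts.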

How the results depend on the processing

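Of 220 values recomputed under other settings, 166 stayed on the same side of the threshold and within the limits of movement, 43 moved and 11 lost their calls. A change of sign could be recorded only for block means and border shifts, and none of these changed sign. The cause was not tested for any of the 220 values. With the aggregate WT curve as control, CR11.8k had 0 later and 0 earlier windows, CR13.4k 11 and 22, and CR14.6k 18 later, and 0 windows were later in all 3 deletions. At an adjusted p of 0.01, CR11.8k had 3 later and 2 earlier windows, CR14.6k 7 and 7, CR11.8k minus CR14.6k 14, the strain-balanced mean 3, and CR13.4k minus CL20k and CR14.6k minus COSN12 had 0. With the spread taken from ERCE C deletions alone, CR11.8k had 4 later windows, the strain-balanced mean 2, and 3 were later in all 3 deletions. With libraries as units CR14.6k minus COSN12 had 0. Run 1 of clone 50 alone gave 5 later windows in CR11.8k, 5 in the strain-balanced mean and a border shift of −117 kb.

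Leaving out each clone in turn gave 9 to 11 later and 1 to 6 earlier windows in CR13.4k, 1 to 6 and 2 to 7 in CR14.6k, 13 to 23 for CR11.8k minus CR14.6k, 0 for CR13.4k minus CL20k and for CR14.6k minus COSN12, 3 to 7 in the strain-balanced mean and 0 to 8 later in all 3 deletions. It gave −0.34 to −0.17 for the mean of CR14.6k over 47.50 to 49.50 Mb, and −259 to −108 kb for the border of CR13.4k. The only clone of CR11.8k could not be left out.

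Over 48.20 to 48.60 Mb the mean was −0.18 in CR13.4k and −0.39 in CR14.6k, both with the aggregate WT curve and with same-strain WT alleles as control. Over 47.50 to 49.50 Mb, the aggregate curve gave −0.27 in CR11.8k and −0.16 in CR13.4k, and same-strain alleles gave −0.28, −0.053 and −0.077 in CR11.8k, CR13.4k and CR14.6k. At a crossing level of 0.25 the right border on DEL differed from CON by −243 kb in CR13.4k and −209 kb in CR14.6k. At −0.25 it differed by −164 kb in CR11.8k and −48.2 kb in CR13.4k. No paired analysis was possible because the labels give the clones of these deletions no replicate numbers that could join clones of different deletions. The pairing of DEL with CON within a clone is part of every DEL minus CON value above.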
